A study of Homo sapiens with 2 samples.

Results

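The subject is a group of 10 imprinted genes in SW620, an established human colorectal cancer cell line grown from a lymph node metastasis. Expression was measured on 1 Affymetrix 3′ array for SW620 carrying a lentiviral short hairpin RNA against SOX2 (SOX2 knockdown) and on 1 array for SW620 carrying a hairpin with no target (mock knockdown). SOX2 encodes a transcription factor best known from stem cells and the early nervous system, and the design asks which genes it controls in colorectal cancer cells. Both cultures grew in RPMI medium. The hairpin sequence, the time after infection and whether the cells were a pool or a clone were not stated, and the sample titles end in KO although the source names read knockdown. The 10 genes were PEG10, SGCE, PEG3, MEST, H19, MEG3, CDKN1C, PHLDA2, NNAT and DLK1, and a probe set belonged to them when the platform annotation gave it exactly 1 of these symbols. That held for 27 of 54613 probe sets and for 9 of the 10 genes, with no probe set of its own for H19. The genes were chosen with the values of PEG10 on these arrays known, so what follows describes 2 arrays and tests nothing.

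An imprinted gene is transcribed mainly from a single parental copy, chosen by DNA methylation laid down in the egg or the sperm. Imprinted genes lie in clusters, act mostly in placental and fetal growth, and are often misregulated in tumours. In most tissues described, PEG10, SGCE, PEG3, MEST, NNAT and DLK1 are read from the paternal copy, and H19, MEG3, CDKN1C and PHLDA2 from the maternal copy. The arrays sum both copies and do not show which was active.

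Each probe set has 1 linear intensity per array. As a floor served the median over all probe sets and both arrays, 68.5 or 6.10 in log2, because the deposited table holds no detection call. A difference is the log2 value on the SOX2 knockdown array minus that on the mock knockdown array, and where a value lay under the floor the fold was taken from the floor and is a bound. Counts of genes past 2-fold used the differences as deposited, so a counted gene can have a bound under 2-fold. With 1 array per group there was no replicate error, and the only spread at hand was that between probe sets of a gene, an SD of 0.49 on the log2 scale over 6440 genes. It holds no variation between cultures. The 2 arrays had like medians, 68.1 for SOX2 knockdown and 69.0 for mock knockdown, but differed widely by gene. SOX2 itself had 4 probe sets. At 228038_at, with the highest mean, it stood at 20.9 on the SOX2 knockdown array and 2077 on the mock knockdown array, at least 30.3-fold lower. At 213721_at it stood at 120 for SOX2 knockdown and 333 for mock knockdown, 2.76-fold lower, and the remaining 2 lay under the floor on both arrays. A description field on both samples mentions mouse liver, which nothing else in the labels matches, and the liver gene ALB lay under the floor on both arrays, at 20.0 for SOX2 knockdown and 21.5 for mock knockdown. Of 12 colorectal epithelial markers all reached the floor, with summed intensities of 67361 for SOX2 knockdown and 51456 for mock knockdown. The keratin KRT18, the brightest, stood at 21262 for SOX2 knockdown and 17410 for mock knockdown. CDX1, CDX2 and CEACAM5 were dim and add little to the sums. For SOX2 knockdown and mock knockdown, CDX1 stood at 133 and 130, CDX2 at 116 and 69.2, and CEACAM5 at 97.8 and 104. Of the 12 markers 1 was at least 2-fold lower, VIL1 at 867 for SOX2 knockdown and 2063 for mock knockdown. The higher ones were 3 claudin genes, CLDN7 by 8.55-fold, CLDN4 by 3.38-fold and CLDN3 by 3.20-fold. Of 11 fibroblast markers 6 reached the floor, with summed intensities over the list of 832 for SOX2 knockdown and 944 for mock knockdown. COL1A1 stood at 237 for SOX2 knockdown and 290.0 for mock knockdown, and LUM stood at 17.8 for SOX2 knockdown and 71.7 for mock knockdown, while COL1A2 and POSTN lay under the floor on both arrays. Of 6 leukocyte markers with a probe set 2 reached the floor, and the list summed to 12016 on the SOX2 knockdown array and 428 on the mock knockdown array, most of it from LYZ, which stood at 11691 for SOX2 knockdown and 213 for mock knockdown. The monocyte marker CD14 was also higher, at 156 for SOX2 knockdown and 43.6 for mock knockdown, at least 2.28-fold, while the defining gene PTPRC lay under the floor at 19.9 for SOX2 knockdown and 16.7 for mock knockdown. Of 9 hepatocyte markers 6 reached the floor, with sums of 5013 for SOX2 knockdown and 1012 for mock knockdown, and SERPINA1, also made by epithelia, stood at 4301 for SOX2 knockdown and 313 for mock knockdown. Of 5 endothelial markers 2 reached the floor, with sums of 298 for SOX2 knockdown and 327 for mock knockdown. The part of these marker differences in the results below was not tested.

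RefSeq promoter windows, running from 250 bases before to 50 after a transcription start, were at hand for MEST, MEG3 and H19 among the 10 genes. Shown here are MEST, with high values on both arrays, and MEG3, close to the floor. ASB4 and CASD1 lie on either side of PEG10. ASB4 was much lower on the SOX2 knockdown array, and CASD1 differed by less than the SD between probe sets. PLAGL1 is an imprinted transcription factor gene whose values are given below. Where a gene had several windows the one with most CG dinucleotides is given. Capitals mark matches, on either strand, to the SOX core letters ACAATG or ACAAAG or to the octamer ATGCAAAT.
MEST: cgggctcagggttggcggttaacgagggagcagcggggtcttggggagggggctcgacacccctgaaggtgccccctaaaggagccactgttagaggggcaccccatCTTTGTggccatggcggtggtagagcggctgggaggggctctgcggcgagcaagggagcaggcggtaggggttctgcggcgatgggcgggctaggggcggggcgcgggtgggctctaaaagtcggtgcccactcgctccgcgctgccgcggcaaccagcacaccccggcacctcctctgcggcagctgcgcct
MEG3: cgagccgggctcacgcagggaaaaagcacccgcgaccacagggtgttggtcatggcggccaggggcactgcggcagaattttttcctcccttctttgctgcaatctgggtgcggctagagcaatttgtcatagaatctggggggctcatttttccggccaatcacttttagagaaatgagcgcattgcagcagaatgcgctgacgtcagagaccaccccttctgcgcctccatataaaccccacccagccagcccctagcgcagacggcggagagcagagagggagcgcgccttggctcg
ASB4: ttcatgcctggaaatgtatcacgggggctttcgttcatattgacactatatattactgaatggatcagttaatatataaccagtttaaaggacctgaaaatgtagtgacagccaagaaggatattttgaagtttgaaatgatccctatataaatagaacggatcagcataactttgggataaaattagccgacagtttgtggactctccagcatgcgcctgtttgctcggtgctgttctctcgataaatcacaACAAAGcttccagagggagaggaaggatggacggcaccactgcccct
CASD1: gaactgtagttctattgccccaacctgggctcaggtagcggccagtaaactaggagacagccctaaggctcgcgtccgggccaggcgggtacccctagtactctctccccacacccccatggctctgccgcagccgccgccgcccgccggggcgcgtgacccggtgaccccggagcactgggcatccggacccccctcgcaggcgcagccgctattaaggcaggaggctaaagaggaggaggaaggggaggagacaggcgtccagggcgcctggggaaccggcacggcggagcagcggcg
PLAGL1: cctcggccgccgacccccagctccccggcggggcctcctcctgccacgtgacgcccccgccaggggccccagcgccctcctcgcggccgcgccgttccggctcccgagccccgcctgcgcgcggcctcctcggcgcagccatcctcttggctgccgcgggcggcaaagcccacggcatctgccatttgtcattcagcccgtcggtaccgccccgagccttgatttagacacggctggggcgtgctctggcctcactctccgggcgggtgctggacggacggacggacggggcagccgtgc
In build GRCh38.p14 these windows are chr7:130491835-130492134 on the plus strand for MEST and chr14:100825858-100826157 on the plus strand for MEG3. They are chr7:95485693-95485992 on the plus strand for ASB4, chr7:94509559-94509858 on the plus strand for CASD1 and chr6:144008210-144008509 on the minus strand for PLAGL1. The ASB4 window holds ACAAAG on its own strand and the MEST window holds it on the opposite strand, read as CTTTGT. The other 3 windows shown hold none of the 3 motifs. Windows of PPP1R9A and PON3, also near PEG10, were at hand but are not shown, and they hold none of them either. Of the further windows of these genes, 3 of PLAGL1 hold ACAAAG and 1 of MEST holds ACAATG. A further MEST window overlaps the one shown and holds the same ACAAAG match. Over all 35116 windows, 16.1% hold ACAAAG, 10.8% hold ACAATG and 1.77% hold ATGCAAAT, counted on both strands, and the ATG that ends the first SOX core can be shared with the start of the octamer. The windows hold 25 CG dinucleotides for MEST, 19 for MEG3, 8 for ASB4, 26 for CASD1 and 39 for PLAGL1, against a median of 14. A match of letters is a description of the sequence and no evidence of binding.

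PEG10 was much lower on the SOX2 knockdown array, and so was SGCE beside it. PEG10 derives from the gag and pol genes of a retrotransposon, makes its longer protein by a ribosomal frameshift and is needed for the placenta in mouse. Its probe set 212094_at stood at 10.1 on the SOX2 knockdown array and 1854 on the mock knockdown array. The log2 difference as deposited was -7.51, and against the floor PEG10 was at least 27.1-fold lower. The second PEG10 probe set, 212092_at, stood at 48.2 on the SOX2 knockdown array and 312 on the mock knockdown array, a log2 difference of -2.69 and at least 4.55-fold lower. Both probe sets thus reached the floor on the mock knockdown array alone, and their differences lay 4.82 apart on the log2 scale. SGCE encodes epsilon-sarcoglycan, a membrane protein whose loss causes myoclonus dystonia, and its start lies head to head with that of PEG10. Its single probe set, 204688_at, stood at 22.0 on the SOX2 knockdown array and 314 on the mock knockdown array. SGCE had a log2 difference of -3.83 and was at least 4.59-fold lower. In bulk RNA, fewer cells with a transcript and less of it per cell cannot be told apart.

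Drops of this kind occurred in other genes too. Of 13609 genes that reached the floor on at least 1 array, 625 reached it on the mock knockdown array alone. With values under the floor raised to the floor, 15 genes lay at or below the difference of PEG10, itself included, and 183 at or below that of SGCE. Taking each gene at its probe set with the highest mean, 8 of the 10 genes reached the floor. Of these, 2 were at least 2-fold lower and 0 at least 2-fold higher, where 7.29% of all genes were lower and 8.44% higher by as much. Since PEG10 helped to choose the group, nothing is read from that count. The median log2 difference of the 8 genes was 0.05, and it was the same with bounds in place of deposited values, against -0.01 over all genes. Of the 27 probe sets 16 reached the floor, or 59.3% against 53.2% of all probe sets. Among the 16, 4 were at least 2-fold lower and 0 higher, where 6.6% of all 29039 probe sets at or above the floor were lower and 7.52% higher. Of these 4, PEG10 held 2, SGCE 1 and CDKN1C 1, and nothing is read from this count either.

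**Figure D1:**
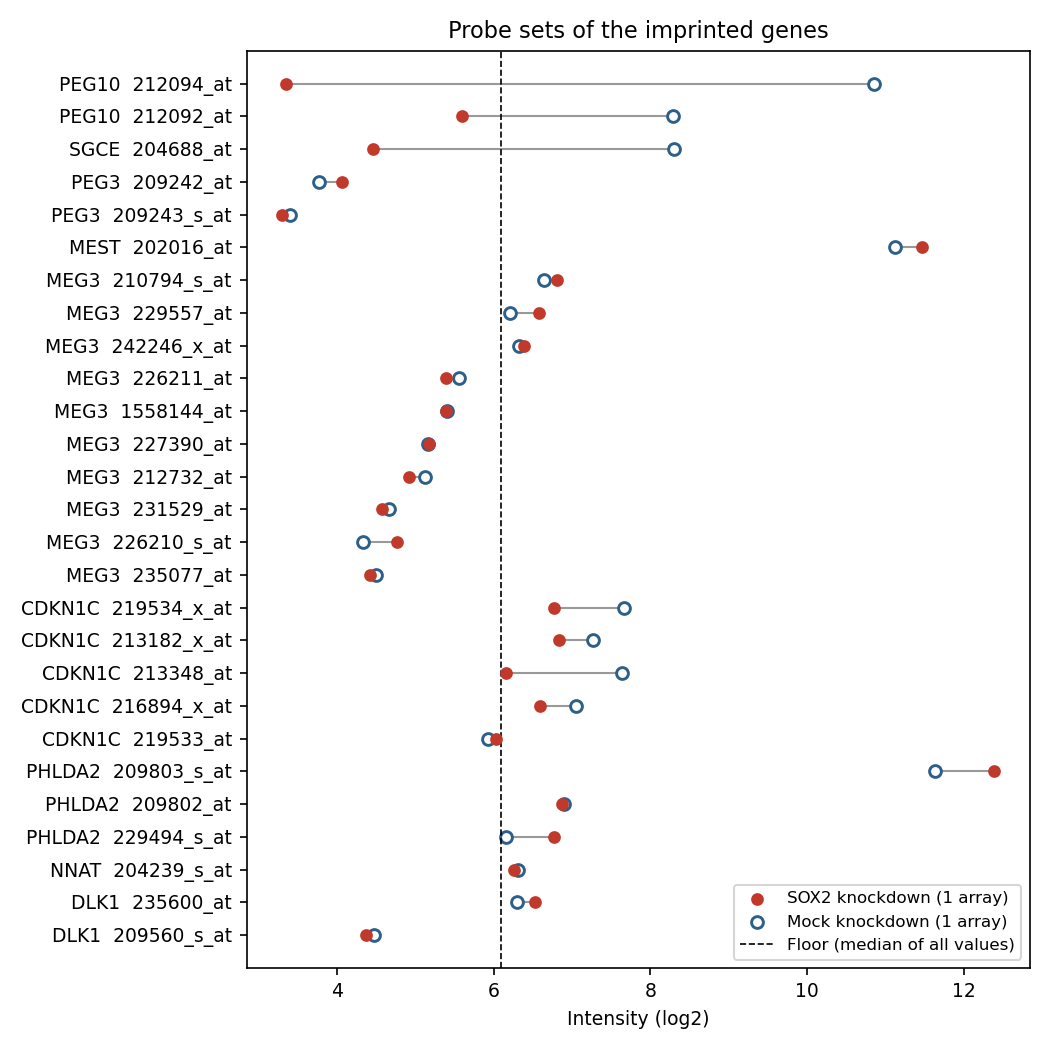
Intensity on the log2 scale of all 27 probe sets of the 9 genes with a probe set, on the SOX2 knockdown array (filled points) and the mock knockdown array (open points), 1 array each; the dashed line is the floor of 6.10. The 2 PEG10 probe sets and the SGCE probe set lie under the floor for SOX2 knockdown and above 8.28 for mock knockdown, while most other pairs of points lie close together.

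Of the other paternally expressed genes, MEST alone was bright enough for a drop of that size to show. MEST, which encodes a protein of the alpha/beta hydrolase fold, stood at 2824 on the SOX2 knockdown array and 2241 on the mock knockdown array, a log2 difference of 0.33. It had high values on both arrays and its difference was below the SD between probe sets. NNAT, which encodes neuronatin, a small membrane protein of the developing brain, stood at 76.8 for SOX2 knockdown and 79.4 for mock knockdown, just over the floor on both arrays. DLK1, an EGF-like membrane protein that acts as a noncanonical Notch ligand, stood at 92.3 on the SOX2 knockdown array and 78.4 on the mock knockdown array at 235600_at. Its other probe set, 209560_s_at, lay under the floor at 20.6 for SOX2 knockdown and 22.2 for mock knockdown. PEG3, a zinc finger gene, lay under the floor at both of its probe sets, with values from 9.84 to 16.8 over both arrays. A further probe set named for both ZIM2 and PEG3, which share their first exons, stood at 87.7 for SOX2 knockdown and 98.7 for mock knockdown and was left out by the rule.

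Among the maternally expressed genes CDKN1C was lower and PHLDA2 higher, both by less than 2-fold at the probe set with the highest mean. CDKN1C encodes a CDK inhibitor that holds cells out of the cycle in the embryo. At 219534_x_at it stood at 109 on the SOX2 knockdown array and 203 on the mock knockdown array, a log2 difference of -0.89. Its probe sets did not give a single size: 213348_at stood at 71.4 for SOX2 knockdown and 200.0 for mock knockdown, a log2 difference of -1.49, or 2.80-fold lower. The differences were -0.44 at 213182_x_at and -0.46 at 216894_x_at, and 219533_at lay under the floor at 65.1 for SOX2 knockdown and 60.9 for mock knockdown. CDKN1C was lower at all 4 of the probe sets above the floor, at 1 of them past 2-fold. Without probe sets ending in _s_at or _x_at, which can match several transcripts, 213348_at stands for CDKN1C. Then 3 of 7 measured genes are at least 2-fold lower, where 7.29% of all genes are. These include PEG10, which helped to choose the group, and SGCE beside it, so nothing is read from that count.

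PHLDA2 encodes a small pleckstrin homology protein that limits placental growth in mouse. At 209803_s_at it stood at 5365 on the SOX2 knockdown array and 3176 on the mock knockdown array, a log2 difference of 0.76. At 229494_s_at it stood at 109 for SOX2 knockdown and 71.3 for mock knockdown, a difference of 0.62, and at 209802_at it stood at 117 for SOX2 knockdown and 119 for mock knockdown, a difference of -0.02. Of the PHLDA2 probe sets 2 were thus higher and 1 was nearly level. MEG3, a long noncoding RNA of the DLK1 cluster with growth-limiting activity, had 10 probe sets, of which 3 reached the floor. These 3 stood between 83.7 and 112 on the SOX2 knockdown array and between 74.1 and 100.2 on the mock knockdown array, with differences from 0.07 to 0.37. The remaining 7 lay under the floor, with values from 20.2 to 46.9 over both arrays. MEG3 and its paternally expressed neighbour DLK1 therefore both lay near the floor. For H19, a maternally expressed noncoding RNA, the 2 probe sets that name it also name MIR675, the microRNA gene inside it. Probe set 224646_x_at stood at 100.2 on both arrays, and 224997_x_at lay under the floor at 21.0 for SOX2 knockdown and 23.9 for mock knockdown. That level pair is among 1128 probe sets with an identical value on both arrays.

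**Figure D2:**
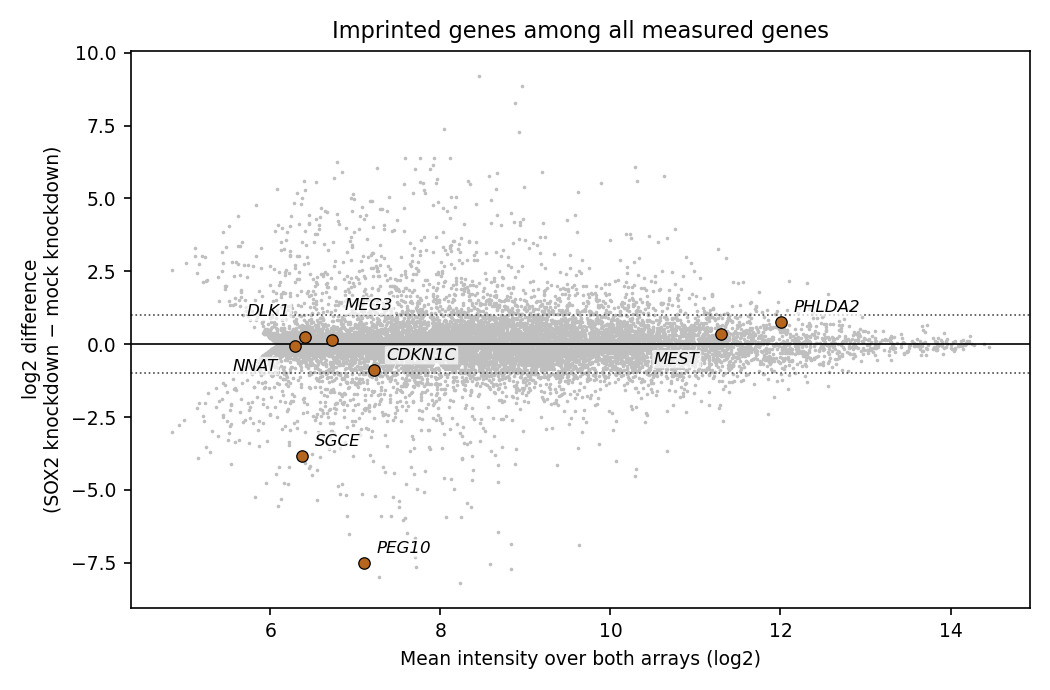
Difference between the arrays (vertical axis, log2) against mean intensity (horizontal axis, log2) for 13609 genes in grey, each at its probe set with the highest mean, with the 8 imprinted genes that reached the floor named; dotted lines mark 2-fold. PEG10 at -7.51 and SGCE at -3.83 lie far below the lower line, and the other 6 lie between the lines, from CDKN1C at -0.89 to PHLDA2 at 0.76.

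Along the chromosome, SGCE and PEG10 stood between genes that were not lower. CASD1, an acetyltransferase gene for sialic acids next to SGCE, stood at 172 on the SOX2 knockdown array and 130 on the mock knockdown array, a log2 difference of 0.41. PPP1R9A, which encodes the actin-binding neurabin and lies next to PEG10, stood at 206 for SOX2 knockdown and 165 for mock knockdown, a difference of 0.32. Of its other probe sets that reached the floor, 221088_s_at differed by 0.81. The other, 233985_x_at, stood at 69.2 for SOX2 knockdown and 54.9 for mock knockdown, a difference of 0.01 against the floor. The collagen gene COL1A2 and the paraoxonase gene PON1 lay under the floor on both arrays. The paraoxonase gene PON3 stood at 152 for SOX2 knockdown and 68.5 for mock knockdown, at least 2.22-fold higher, and PON2 stood at 2061 for SOX2 knockdown and 1653 for mock knockdown, a difference of 0.32. The lower values began again at ASB4, the fifth gene from PEG10, which encodes an ankyrin repeat protein and is imprinted in mouse. ASB4 stood at 36.7 on the SOX2 knockdown array and 595 on the mock knockdown array, at least 8.68-fold lower. Its other probe sets, 237720_at and 237721_s_at, stood at 25.9 and 25.2 on the SOX2 knockdown array and at 124 and 149 on the mock knockdown array, so all 3 were under the floor on the SOX2 knockdown array and above it on the mock knockdown array.

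Around CDKN1C and PHLDA2, the cluster on chromosome 11, differences went both ways. SLC67A1, a transporter gene formerly named SLC22A18 that lies between them and is read from the maternal copy, stood at 1274 on the SOX2 knockdown array and 294 on the mock knockdown array, 4.34-fold higher. The potassium channel gene KCNQ1 stood at 308 for SOX2 knockdown and 151 for mock knockdown, a difference of 1.03, but its other probe set differed by 0.33. KCNQ1OT1, the paternally expressed noncoding RNA of this cluster, stood at 86.3 for SOX2 knockdown and 98.7 for mock knockdown, a difference of -0.19. CARS1, a transfer RNA synthetase gene near PHLDA2, stood at 2816 for SOX2 knockdown and 5362 for mock knockdown, a difference of -0.93, and its other probe sets differed by -1.09 and -1.16, both past 2-fold. Over the 5 neighbours on each side of the 9 members with a probe set, H19 left out, 39 genes were measured, of which 1 was at least 2-fold lower and 7 higher, with a median of 0.18. The one lower was ASB4, with CARS1 just short of the limit. Over all genes 7.29% were lower and 8.44% higher. The counts turn on the probe set taken: CARS1 was past 2-fold lower at its other probe sets, and KCNQ1 was short of 2-fold at its other. The windows also overlap and hold other imprinted genes. KCNQ1, SLC67A1 and BLCAP are counted again in the list of other imprinted genes below. Nothing is read from these few genes.

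**Figure D3:**
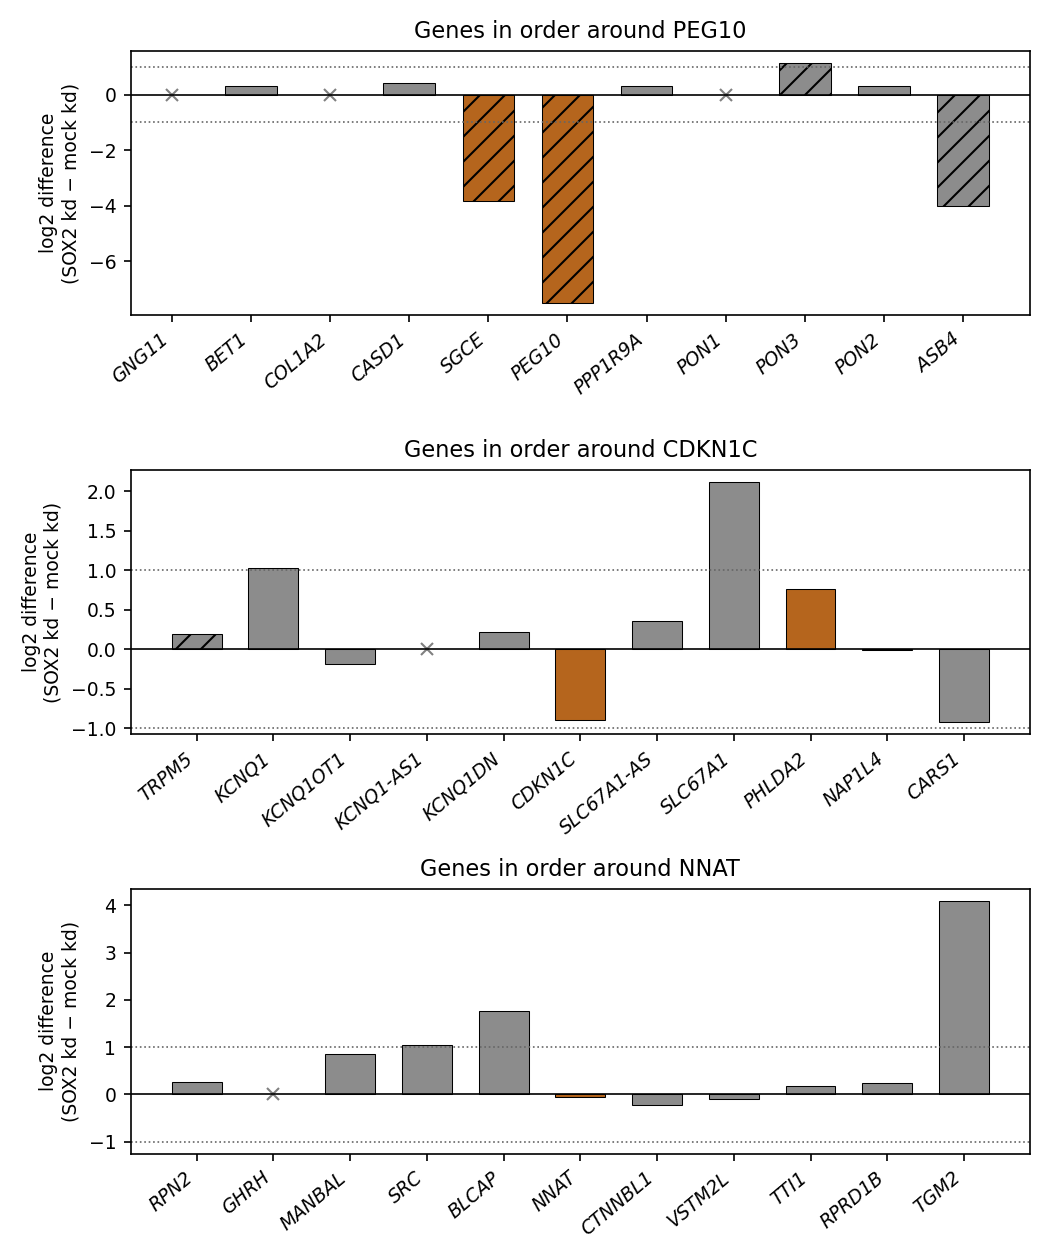
Difference between the arrays (SOX2 knockdown minus mock knockdown, log2, as deposited) for genes in chromosome order around PEG10 with SGCE, CDKN1C with PHLDA2, and NNAT; members are brown, other genes grey. Hatched bars had 1 array under the floor, so that their size as drawn is not a measured fold, crosses had both arrays under it, and dotted lines mark 2-fold. The top panel shows SGCE, PEG10 and ASB4 below 0 and the measured genes between and beside them above 0.

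A list of 62 other genes with imprinted expression described in some tissue gave 34 measured genes. Of these, 3 were at least 2-fold lower and 10 at least 2-fold higher, or 8.82% and 29.4% against 7.29% and 8.44% of all genes. The list was chosen with earlier results of these data known, so nothing is read from these counts. The list median was 0.17, and 0.14 with bounds, against -0.01 over all genes. Differences that were lower were led by PLAGL1, a zinc finger transcription factor gene that in mouse acts on a network of imprinted genes. PLAGL1 stood at 13.8 on the SOX2 knockdown array and 371 on the mock knockdown array at 209318_x_at, at least 5.42-fold lower. Its other probe sets, 207002_s_at and 207943_x_at, stood at 8.56 and 12.8 on the SOX2 knockdown array and at 464 and 275 on the mock knockdown array, so all 3 were under the floor on the SOX2 knockdown array alone. WT1, a zinc finger transcription factor gene of the kidney and gonad, stood at 29.9 for SOX2 knockdown and 242 for mock knockdown, at least 3.53-fold lower, although its other probe set stood at 47.9 for SOX2 knockdown and 69.6 for mock knockdown. ZDBF2, a paternally expressed zinc finger gene, stood at 18.8 for SOX2 knockdown and 101 for mock knockdown, at least 1.48-fold lower.

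Among the higher genes of that list, SLC67A1 and KCNQ1 are given above. ERAP2, an aminopeptidase gene of antigen processing, stood at 1267 on the SOX2 knockdown array and 46.1 on the mock knockdown array, at least 18.5-fold higher, and all 3 of its probe sets lay under the floor on the mock knockdown array. ZNF331, a zinc finger gene, stood at 279 for SOX2 knockdown and 24.5 for mock knockdown, at least 4.07-fold higher. PXDC1 stood at 821 for SOX2 knockdown and 202 for mock knockdown, or 4.06-fold higher, though its other probe set differed by 0.63. BLCAP, the gene within which NNAT lies, stood at 2257 for SOX2 knockdown and 663 for mock knockdown, or 3.40-fold higher, while NNAT was nearly level. NAP1L5, a paternally expressed gene of the nucleosome assembly family, stood at 146 for SOX2 knockdown and 33.1 for mock knockdown, at least 2.12-fold higher. GNAS, the stimulatory G protein subunit gene, differed by 0.18 at its brightest probe set and by 2.46 at 214157_at, which stood at 943 for SOX2 knockdown and 172 for mock knockdown, 5.49-fold higher. The other 7 GNAS probe sets lay between 0.01 and 0.24. IGF2R differed by -0.31. Paternally expressed genes thus lay on both sides, PLAGL1 and ZDBF2 lower and NAP1L5 higher.

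**Figure D4:**
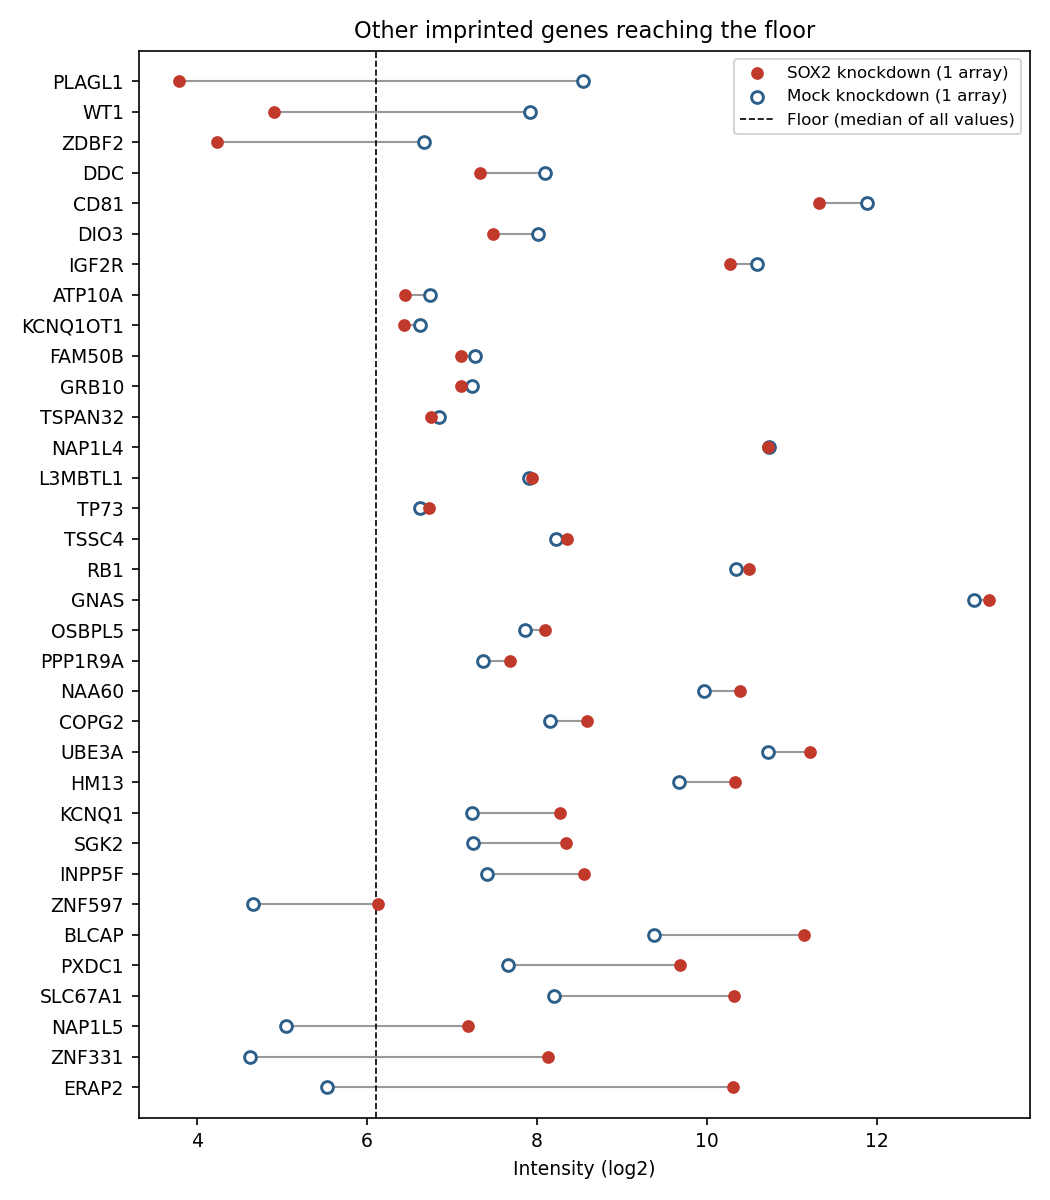
Intensity on the log2 scale of 34 other imprinted genes on the SOX2 knockdown array (filled points) and the mock knockdown array (open points), 1 array each, ordered by difference with the lowest at the top; the dashed line is the floor of 6.10. PLAGL1, WT1 and ZDBF2 at the top cross the floor downwards, and NAP1L5, ZNF331 and ERAP2 at the bottom cross it upwards, as ZNF597 does by a little.

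Lists of genes related to PEG10 and to imprinting itself had members past 2-fold in both directions, and the list related to SGCE in the higher direction only. The counts are to be read against 15.7% of all genes past 2-fold either way. Among 14 measured genes derived from retrotransposon gag, the group of PEG10, 1 was at least 2-fold lower and 1 higher, with a median of 0.03. The lower was ZCCHC18, at 44.7 on the SOX2 knockdown array and 160 on the mock knockdown array, and the higher was RTL8A, which stood at 218 for SOX2 knockdown and 32.7 for mock knockdown. Among 6 measured partners of SGCE in the dystrophin-glycoprotein complex, 0 were at least 2-fold lower and 1 higher, with a median of -0.19. The higher was UTRN, the dystrophin relative utrophin, with a difference of 1.87 at 1 of its 3 probe sets, the others differing by -0.10 and 0.32, while the sarcoglycan SGCB differed by -0.20. Among 19 regulators of imprints and DNA methylation, 1 was at least 2-fold lower and 1 higher, with a median of -0.10. The methylcytosine dioxygenase TET1 stood at 31.7 for SOX2 knockdown and 115 for mock knockdown, and TET2 stood at 111 for SOX2 knockdown and 52.0 for mock knockdown, neither of them 2-fold apart against the floor. The maintenance methyltransferase DNMT1 differed by -0.54, its partner UHRF1 by -0.37, TRIM28 by 0.08 and the insulator protein CTCF by -0.36.

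Partners of the other members were mixed. Among 14 CDK inhibitors, cyclins and CDKs beside CDKN1C, 1 was at least 2-fold lower, CDKN2B at -2.09 with its other probe set at -0.38, and 2 higher, CCNE1 at 1.87 and CCNE2 at 1.33, with a median of 0.03. Around H19 and IGF2, 13 genes were measured, with a median of -0.17. Of these 3 were at least 2-fold lower, HMGA2 at -2.04, IGFBP2 at -1.70 and IGF2BP1 at -1.53, and 2 higher, IRS1 at 3.47 and IGF1R at 1.46. Of the other IGF1R probe sets 203628_at differed by 1.29 and 203627_at by 0.04, and with the mean over probe sets or the probe set of smallest difference 1 gene of this list was higher. Among 17 Notch genes beside DLK1, HEY1 at -1.52 and JAG1 at -1.34 were at least 2-fold lower and NRARP at 1.63 higher, with a median of -0.05. The other HEY1 probe set differed by -0.77, and 1 of the 5 JAG1 probe sets by 0.02. At the probe set of smallest difference, or without probe sets ending in _s_at or _x_at, 0 Notch genes were lower by 2-fold. Of 4 measured relatives of PHLDA2, PHLDA1 at -1.01 was lower by 2-fold and PHLDB2, at least 3.25-fold, higher, with a median of 0.16. None of these 7 lists was tested, and their shares past 2-fold are to be read against the 7.29% and 8.44% of all genes.

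By the distance between pairs of log2 values over the 2 arrays, with values under the floor raised to it, the genes most like PEG10 were HDGFL3, ROBO1, SLC43A3, SOX2 and LCK. The growth factor relative HDGFL3 stood at 20.7 on the SOX2 knockdown array and 1842 on the mock knockdown array, at a log2 distance of 0.0092. The axon guidance receptor ROBO1 stood at 16.2 for SOX2 knockdown and 1792 for mock knockdown, at a distance of 0.049, and the transporter SLC43A3 stood at 65.9 for SOX2 knockdown and 1662 for mock knockdown, at a distance of 0.16. SOX2 itself lay at a distance of 0.16 and the T cell kinase LCK, which stood at 34.1 for SOX2 knockdown and 2093 for mock knockdown, at 0.18. These genes and PEG10 all lay under the floor on the SOX2 knockdown array, where their values were thus set equal. Likeness therefore says only that they had near values on the mock knockdown array. As deposited, the SOX2 knockdown values ran from 10.1 for PEG10 to 65.9 for SLC43A3.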

How the data were processed

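Total RNA of 1 SOX2 knockdown and 1 mock knockdown culture of SW620 was extracted with Trizol, labelled with biotin and hybridized to 1 array each, per the labels' protocols. The authors deposited 1 intensity per probe set and array. The submitters' processing notes name RMA, with version and settings not given in the sources used here, and the range of the values showed a linear scale. RMA normalizes quantiles, so a shift in total RNA cannot be seen.

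The deposited intensity was turned into log2 without a pseudocount and not normalized again. Of 54613 probe sets other than 62 controls, 41091 had 1 gene symbol, 1801 several and 11721 none, and the last 2 kinds were not used. Of those with 1 symbol, 41037 matched RefSeq (GRCh38.p14) by Entrez identifier, which changed 0 symbols. RefSeq gave names, gene order and promoter windows, and no gene coordinates are printed, since the probe sets carry no build. A gene took its probe set with the highest mean and was measured if either array reached the floor. The limit was 2-fold, no test was possible with 1 array per group, and lists were matched to current symbols, SLC22A18 among them.

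The members and lists were chosen with earlier results of these data known. Named were SOX2, all members, the direct neighbours of PEG10 and SGCE, neighbours past 2-fold, up to 3 genes per list and direction past 2-fold (6 for other imprinted genes) and the 5 genes nearest to PEG10. A few others were named after their values were seen: GNAS, IGF2R, SGCB, DNMT1, UHRF1, TRIM28, CTCF, KCNQ1OT1, COL1A2, PON1, PON2, POSTN, LUM, PTPRC, CD14, VIL1, CLDN3, CLDN4, CLDN7, CDX1, CDX2, CEACAM5, CARS1 and ALB. The alternatives were other floors, normalizations, probe set choices, limits and a pseudocount of 32. The code that counts past a fold limit was checked on simulated data with planted differences. These were planted well above the floor, with noise smaller than the spread between probe sets. The check covers the code and says nothing of the reliability of the counts here. Python 3.11.15, numpy 2.4.6, pandas 2.3.3 and matplotlib 3.10.9 were used.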

Additional observations from a re-analysis of the deposited data

How the results depend on the processing

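The lower values of PEG10 and SGCE kept their direction under every alternative that could measure them, but their size did not hold. With values under the floor raised to it the log2 differences were -4.76 for PEG10 and -2.20 for SGCE, and with a pseudocount of 32 they were -5.48 and -2.68. PEG10 differed by -5.10 as a mean over its probe sets and by -2.69 at the probe set with the smallest difference. Requiring the floor on both arrays removes PEG10 and SGCE by construction, and likewise PLAGL1, WT1 and ZDBF2. It also removes ERAP2, ZNF331, NAP1L5 and ZNF597 from the higher other imprinted genes. Then 0 of 6 measured members were at least 2-fold lower. Of the other imprinted genes 0 were lower and 6 higher, where 5.58% of all genes were lower and 6.68% higher. Over the alternatives at 2-fold the count of higher other imprinted genes ran from 6 to 10. Over the same alternatives the share of all genes that were higher ran from 6.05% to 11.2%. The number of list genes measured changed with the floor, and nothing is read from the counts of other imprinted genes. Without probe sets ending in _s_at or _x_at 1 other imprinted gene was lower. With a limit of 1.5-fold 3 of 8 measured members, PEG10, SGCE and CDKN1C, were lower and 1, PHLDA2, was higher. At that limit 14.78% of all genes were lower and 15.02% higher. Since PEG10 helped to choose the group, nothing is read from these member counts. CDKN1C ranged from -1.49 to -0.44 and PHLDA2 from -0.02 to 0.78 over the alternatives, mostly by choice of probe set. In all, 68 of 79 alternative values of the main results stayed within the SD between probe sets or, for counts, within 1.5 times. Of the others 263 of 292 did. Part of these could not move, so the totals do not measure stability. Another floor leaves the difference of a gene that still reaches it unchanged, and SGCE has 1 probe set to choose from. No paired analysis was possible because each group holds 1 array. For the same reason no array could be left out. Dim members (PEG3, NNAT, DLK1, MEG3) lay near or under the floor, where signal over background limits what can be seen.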

Other observations

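Beside members that were nearly level or dim, some neighbours differed strongly. On chromosome 20, TGM2, which encodes a transglutaminase and is the fifth gene from NNAT, stood at 2030 on the SOX2 knockdown array and 119 on the mock knockdown array, 17.1-fold higher. Its other probe sets differed by 1.52, 1.36 and -0.02. The kinase gene SRC, between MANBAL and BLCAP, stood at 495 for SOX2 knockdown and 240.0 for mock knockdown, a log2 difference of 1.04, while its other probe sets that reached the floor differed by -0.02 to 0.16. Near PEG3, itself under the floor, the zinc finger gene ZNF264 stood at 175 for SOX2 knockdown and 32.1 for mock knockdown, at least 2.55-fold higher, and at its other probe set it stood at 142 for SOX2 knockdown and 35.4 for mock knockdown. The neighbours of MEST, MEG3 and DLK1 that were measured held 0 genes past 2-fold in either direction.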
